A study of Mus musculus with 12 samples.

Results

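The comparison is between CA1 and the dentate gyrus (DG) of the mouse hippocampus in fresh-frozen sections that were permeabilized with 0.1 N HCl for 5 min. Its members are 8 of the 48 replicates in the deposited count table, 4 of CA1 and 4 of DG, and they were taken by their labels. The study is about photo-isolation chemistry (PIC): a caged primer for reverse transcription is applied to a section, ultraviolet light steered by a digital micromirror device (DMD) removes the cage in one area, and CEL-seq2 libraries are made from the cDNA of that area. All tissue came from male ICR mice aged 8 weeks, with no genotype or drug treatment named in the labels. Each region and condition was 1 library in which 4 replicates carried different barcodes, so region and library cannot be told apart. The study counts its replicates as biological with n = 4, but the labels tie none of them to a named animal, and each p-value here measures the spread between these replicates. The same regions were also taken in fresh-frozen sections permeabilized with TE at 70 °C for 1 h, from the same kind of mice. With 4 replicates each, they served to test where the difference between regions was not the same with HCl and TE. The sample titles name CA1, CA3 and DG, whereas the series design names CA2 in place of CA3, and this naming does not touch CA1 or DG.

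CA1 and DG hold the last and the first relay of the main excitatory circuit of the hippocampus. Granule cells of DG receive input from the entorhinal cortex and send mossy fibres to CA3, and pyramidal neurons of CA1 receive CA3 axons and carry the output to the subiculum and cortex. DG also keeps neural stem cells that make granule cells in the adult, and its hilus holds mossy cells. A lit area takes in every cell under the light, so glia, interneurons and vessels enter with the principal neurons, and a section also carries neighbouring tissue. In such bulk samples, fewer cells of a type and less RNA per cell cannot be told apart.

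A unique molecular identifier (UMI) marks 1 captured molecule, and all values are UMI counts per gene or counts per 1000000 UMIs of the replicate (CPM). Replicates 1 to 4 held 730992, 610016, 869363 and 127253 UMIs in CA1 and 352312, 644753, 787907 and 238861 in DG, and values below are always in the order of replicates 1 to 4. The totals overlapped, with means of 584406 ± 322662 and 505958 ± 254104 (SD, n = 4) and no difference beyond that spread (two-sided exact permutation test, p = 0.800). Genes with at least 1 UMI numbered 19754, 18169, 19983 and 13380 in CA1 and 14940, 17028, 17950 and 13848 in DG (exact permutation test, p = 0.314). These numbers follow depth, and after random thinning of every replicate to the smallest total they were 13066, 12846, 12987 and 13380 in CA1 and 11975, 12356, 12519.8 and 11977 in DG, as means over 10 draws. At this equal depth all 4 CA1 replicates lay above all 4 DG replicates (exact permutation test, p = 0.0286, the smallest that 4 against 4 allow). Random spread between replicates was alike in both regions, with a common coefficient of biological variation of 0.190 in CA1 and 0.177 in DG.

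Replicate 4 of CA1 stood apart from the other 3 CA1 replicates. It had the fewest UMIs of the 8 replicates, and its summed CPM were the highest in each of 4 gene sets. Mitochondrially encoded genes summed to 31013, 35609, 31408 and 82607 CPM in CA1 and 30808, 20471, 20759 and 29678 in DG. Satellite-like genes, 10 genes within the first 3100000 bases of chromosome 9, summed to 2015, 1951, 2074 and 7151 CPM in CA1 and 148, 161, 126 and 147 in DG. Gm10800 and Gm10801, a pair of genes on chromosome 2, summed to 5724, 5890.0, 5162 and 22907 CPM in CA1 and 937, 895, 840.2 and 942 in DG. Olfactory and vomeronasal receptor genes summed to 945, 616, 766 and 1886 CPM in CA1 and 258, 189, 239.9 and 226 in DG. In the last 3 sets the other CA1 replicates were also above every DG replicate, so the gap between regions did not rest on replicate 4 of CA1 alone, whereas the mitochondrial sums of CA1 replicates 1 to 3 lay at or just above those of DG replicates 1 and 4. Without this replicate 2491 genes were called different between the regions, against 2526 with all 8.

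The label of each region was checked on its marker. Wfs1 (ENSMUSG00000039474, chromosome 5, 36966104 to 36989205, GRCm38), which encodes a protein of the endoplasmic reticulum, marks CA1 pyramidal neurons, and it had 176, 385, 474 and 299 CPM in CA1 and 145, 101, 57.1 and 25.1 in DG. Every CA1 replicate was above every DG replicate, although DG was not free of it, with the lowest value in its replicate 4. The log2 fold change, always CA1 over DG, was 2.004 (SE 0.27, adjusted p = 3.57e-07). Prox1 (ENSMUSG00000010175, chromosome 1, 190118035 to 190170714), the homeobox gene that sets granule cell identity, had 90.3, 125, 107 and 86.4 CPM in CA1 and 693, 1047, 907 and 1101 in DG. All DG values were more than 5 times the highest CA1 value, and the log2 fold change was -3.16 (SE 0.19, adjusted p = 1.95e-16). A gene was called when its p, adjusted over all 14893 genes that reached 10 UMIs in the 8 replicates together, was under 0.05.

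Of the genes tested 17.0% were called, 8.61% toward CA1 and 8.35% toward DG. The CPM of the regions did not overlap for 18.3% of the genes tested. 1289 genes stayed called in the same direction in each of the 8 fits that left out 1 replicate, 631 toward CA1 and 658 toward DG. The count of calls depended on depth: replicates thinned to the smallest total gave 962 calls of 10383 genes tested, of which 895 were among the calls at full depth, in the same direction. DESeq2 called 1621 genes, 1610 of them also called here in the same direction, and no call reversed. Calls were also examined with DESeq2 size factors, without a filter or with a stricter one (filterByExpr), with the CA3 replicates in the fit, with a correction for repeated UMIs, with the replicate number as a block, without genes that have copies and without each replicate; a range after an adjusted p spans all of these settings. Over all genes tested the median log2 fold change was 0.03, and gene lists below are read against this median and these shares. Calls in lists are counted at full depth, and for most lists fewer were left after thinning. Counts of 1 to 3 often moved when 1 replicate was left out.

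The largest differences toward CA1 were in genes whose sequence occurs more than once in the genome. Genes were ranked by log2 fold change among those called in all leave-one-out fits, with regions that did not overlap and at least 10 UMIs on average in the higher region, which 515 genes met toward CA1 and 588 toward DG. Of the first 12 toward CA1, 11 shared at least 10% of their 50-base words with a gene elsewhere or were mitochondrial or satellite-like, and none of the first 12 toward DG did. Because CEL-seq2 reads the ends of transcripts, sharing was measured in the last 600 bases for these counts and for the bins that follow. Genes sharing no 50-base word had a median log2 fold change of -0.01 (11420 genes, 883 called higher in CA1 and 1020 in DG). From 10% to under 50% sharing it was 0.36 (800 genes, 144 and 28). From 50% to under 90% it was 0.74 (167 genes, 40 and 9), and from 90% it was 0.69 (69 genes, 24 and 1). Calls of genes with copies thus leaned to CA1, and the same bins had medians of 0.09, 0.21 and 0.23 in TE-permeabilized sections. Gene by gene, counts of such genes do not tell which copy a read came from, and they are given here as uncertain. Leaving all 1044 of these genes out gave 2281 calls of 13849, 2221 of them unchanged in direction, a setting chosen after the data were seen.

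Satellite-like genes, nuclear copies of mitochondrial DNA, mt-Nd3 and Gm3756 made up these 11. The nuclear copies among these 11 lie on chromosome 1 and are annotated as unprocessed pseudogenes. More of this type lie on chromosome 2. Other genes that share some words with mitochondrial genes lie elsewhere, several of them processed pseudogenes. Gm10925 (ENSMUSG00000100862, chromosome 1, 24613974 to 24614651), a copy of mt-Atp6, had 1169, 897, 1840 and 350 UMIs in CA1 and 6, 5, 12 and 2 in DG. The DG replicates held a few molecules each and every CA1 replicate many times more, and the log2 fold change was 7.30 (SE 0.34, adjusted p = 2.00e-23). Its neighbour Gm28437 (ENSMUSG00000101111, chromosome 1, 24613189 to 24613971), a copy of mt-Co3, had 1624, 1455, 1892 and 504 UMIs in CA1 and 9, 7, 28 and 4 in DG, again with no overlap (log2 fold change 6.83, SE 0.30, adjusted p = 1.42e-22). Gm29216 (ENSMUSG00000101249, chromosome 1, 24615706 to 24616197), a copy of part of mt-Co1, had 2513, 2394, 2809 and 797 UMIs in CA1 and 11, 18, 22 and 9 in DG (log2 fold change 7.12, SE 0.26, adjusted p = 6.75e-24). In TE-permeabilized sections these 3 genes went different ways, with log2 fold changes of -2.12 (SE 0.21) for Gm10925, 0.22 (SE 0.15) for Gm28437 and 5.76 (SE 0.20) for Gm29216. Aligned without gaps, Gm10925 equals mt-Atp6 at 678 of 678 bases, Gm28437 equals mt-Co3 at 783 of 783, and Gm28661 equals mt-Co2 at 681 of 681. Gm29216 differs from mt-Co1 at 6 of 492 bases and Gm13339 from mt-Nd2 at 17 of 510. The sequences show how little separates the pairs. The last 150 bases of Gm28661 (GRCm38, chr1:24614885-24615034, minus strand) are the same in mt-Co2, so no base is in capitals.
Gm28661: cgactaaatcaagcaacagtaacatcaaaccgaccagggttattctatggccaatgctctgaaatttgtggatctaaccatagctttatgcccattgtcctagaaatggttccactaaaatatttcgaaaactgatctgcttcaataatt

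The 150 bases with most differences between Gm29216 (GRCm38, chr1:24616046-24616195, minus strand) and mt-Co1 (chrM:6383-6532, plus strand) have the differing bases in capitals, and all 6 lie at one end.
mt-Co1: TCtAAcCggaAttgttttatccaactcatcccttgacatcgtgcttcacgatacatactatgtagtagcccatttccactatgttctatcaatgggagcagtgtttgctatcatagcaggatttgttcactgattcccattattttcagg
Gm29216: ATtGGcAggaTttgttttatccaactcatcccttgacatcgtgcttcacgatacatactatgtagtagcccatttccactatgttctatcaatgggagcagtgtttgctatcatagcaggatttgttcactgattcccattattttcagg

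The same for Gm13339 (GRCm38, chr2:22590187-22590336, minus strand) and mt-Nd2 (chrM:4639-4788, plus strand) shows 8 differing bases.
mt-Nd2: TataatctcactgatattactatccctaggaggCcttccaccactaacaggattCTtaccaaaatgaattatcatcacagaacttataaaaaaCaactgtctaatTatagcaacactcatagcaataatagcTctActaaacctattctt
Gm13339: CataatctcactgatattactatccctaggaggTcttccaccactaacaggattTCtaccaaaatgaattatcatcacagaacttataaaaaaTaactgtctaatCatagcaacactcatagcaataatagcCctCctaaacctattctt

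The mitochondrial genes themselves were 24 in the table, of which 14 were tested and 12 called, all higher in CA1, with a median log2 fold change of 1.75. In TE-permeabilized sections the median of the same list was 0.02. mt-Co2 had 336, 287, 508 and 71 UMIs in CA1 and 12, 11, 15 and 3 in DG, without overlap (log2 fold change 4.64, SE 0.27, adjusted p = 5.95e-19). Size differed widely within the list. The largest values were in genes that share all or nearly all their words with nuclear copies. They were 5.36 for mt-Nd3 (46.3-fold by UMIs, 95% interval 12.5 to 387), 4.64 for mt-Co2, 4.10 for mt-Co3 and 3.82 for mt-Atp6. Genes with no shared word ranged from 0.66 for mt-Cytb over 0.80 for mt-Rnr1 and 0.91 for mt-Nd1 to 1.61 for mt-Nd6. The short mt-Tp stood at 2.03, but not all of its words were examined for sharing. mt-Rnr1, the small ribosomal RNA, had 3441, 4747, 3897 and 6153 CPM in CA1 and 2336, 2703, 3309 and 2131 in DG, which did not overlap (adjusted p = 0.00182). The CPM of mt-Nd1 and mt-Cytb overlapped between regions. The call of mt-Nd1 (adjusted p = 0.00644) was lost without CA1 replicate 4 (adjusted p = 0.173) and in DESeq2 (0.208). That of mt-Cytb (adjusted p = 0.0493) was lost without CA1 replicate 4 (adjusted p = 0.682), without DG replicate 2 (0.153), without DG replicate 3 (0.172), without DG replicate 4 (0.0504), in DESeq2 (0.375), with DESeq2 size factors (0.0549) and with the stricter filter (0.0775). The most abundant transcripts, mt-Rnr2 (0.36, SE 0.27, adjusted p = 0.408) and mt-Nd4 (0.51, SE 0.24, adjusted p = 0.151), were not called. Without CA1 replicate 4 mt-Nd4 stood at -0.052 (adjusted p = 0.881, range 0.00352 to 0.881), and it was called with the UMI correction (adjusted p = 0.00352). Counts of mt-Rnr2 in 3 CA1 replicates exceeded the number of different UMIs that 6 bases allow, so its level in CA1 is a lower limit. Its value without CA1 replicate 4, -0.37, compares such limited counts, and its direction cannot be told from these counts. mt-Nd4, mt-Nd1 and mt-Cytb came next in mean CPM, and the same limit may lower their counts in the deeper replicates. CA1 replicate 4 had the fewest UMIs, so leaving it out keeps the CA1 replicates where the limit weighs most. Calls lost without it therefore do not show that the regions were alike in these genes.

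**Figure D1:**
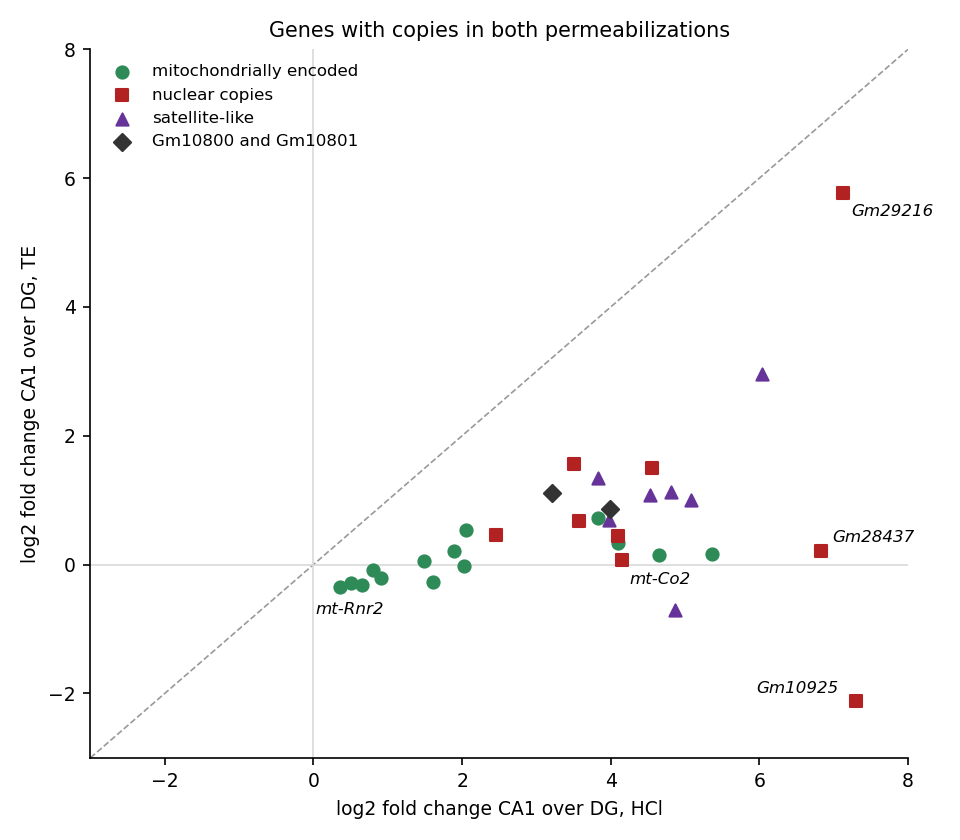
Log2 fold change of CA1 over DG in HCl-permeabilized (x axis) and TE-permeabilized (y axis) fresh-frozen sections for mitochondrially encoded genes, their copies in the nuclear genome, satellite-like genes and Gm10800 and Gm10801, each point 1 gene tested in both. The dashed line marks equal values; mt-Co2 lies at 4.64 with HCl and 0.15 with TE.

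Satellite-like genes were treated as possible genomic DNA, since their sequence is that of the tandem repeats next to centromeres. All 10 were called higher in CA1, with a median log2 fold change of 4.84, which is the same with Gm10721, without UMIs in DG, at its lower limit. Together they had 5376 UMIs in CA1 and 290 in DG, that is 3298 ± 2569 and 145 ± 14.7 CPM (SD, n = 4). In TE-permeabilized sections the set reached 79.3 ± 13.0 CPM in CA1 and 53.6 ± 8.70 in DG. Gm10717 (ENSMUSG00000095891, chromosome 9, 3025417 to 3033289) had most UMIs of the set, 604, 483, 696 and 380 UMIs in CA1 and 34, 69, 62 and 19 in DG. Every CA1 replicate exceeded every DG replicate several times over, and replicate 4 of CA1 was highest in CPM; the log2 fold change was 3.83 (SE 0.29, adjusted p = 5.35e-13). ENSMUSG00000097312 (log2 fold change 5.08, SE 0.41, adjusted p = 5.48e-15) and Gm10722 (4.86, SE 0.44, adjusted p = 2.47e-13) followed in UMIs. Gm10721 had 34, 36, 43 and 17 UMIs in CA1 and none in DG, at least 37.5-fold higher against a floor of 3 counts over the 4 DG replicates. Gm11168 (6.03, SE 0.79, adjusted p = 5.94e-13), Gm10715 (5.85, SE 1.49, adjusted p = 7.98e-09, 82.2-fold by UMIs, 95% interval 14.4 to 3282) and Gm10719 (4.81, SE 0.58, adjusted p = 2.60e-11) had few UMIs in DG and more in every CA1 replicate. The sequence of Gm10717 shows the repeat. Shifted by 234 bases along itself, the longest exon (552 bases) matched itself at 82.7% of positions, the highest share of all shifts from 10 to 300 bases. Its first 200 bases (GRCm38, chr9:3025417-3025616, plus strand) have in capitals the bases inside 50-base words that another annotated gene also holds.
Gm10717: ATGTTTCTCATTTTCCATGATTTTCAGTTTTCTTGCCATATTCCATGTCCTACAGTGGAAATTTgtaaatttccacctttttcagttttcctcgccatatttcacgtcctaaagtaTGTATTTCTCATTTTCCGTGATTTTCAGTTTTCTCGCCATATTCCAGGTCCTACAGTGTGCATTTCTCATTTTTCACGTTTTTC

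Gm10800 and Gm10801, on chromosome 2, behaved in the same way and were far more abundant. Gm10800 (ENSMUSG00000075014, chromosome 2, 98666547 to 98667301) had 3482, 3834, 3213 and 14271 CPM in CA1 and 673, 712, 618 and 674 in DG, and it was among the 8 most abundant genes of the 8 replicates. The DG values were close to each other while CA1 replicate 4 exceeded the other CA1 values several times, and the log2 fold change was 3.21 (SE 0.27, adjusted p = 3.10e-11); without that replicate it was 2.38 (adjusted p = 1.56e-13, range 6.35e-62 to 1.37e-06). The log2 fold change of Gm10801 was 4.00 (SE 0.29, adjusted p = 4.93e-13). Gm3756 (ENSMUSG00000091639, chromosome 9, 31935446 to 31936800) had 112, 78, 109 and 11 UMIs in CA1 and none in DG, at least 89.5-fold higher, and shared 67.8% of its 50-base words with other genes, most with Gm3226 on chromosome 13.

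Olfactory and vomeronasal receptor genes are hardly transcribed in brain and were also treated as possible genomic DNA. The table held 1141 of them, 773 with at least 1 UMI, and 36 were tested. Over all of them CA1 had 1973 UMIs and DG 456, or 1053 ± 571 and 228 ± 29.2 CPM. In TE-permeabilized sections the sums were 184 ± 26.6 in CA1 and 144 ± 33.4 in DG. CA1 replicate 4 was highest in this sum as in that of the satellite-like genes, and the part of genomic DNA in these counts was not tested. Of the genes tested 9 were called higher in CA1 and 1 higher in DG, with a median log2 fold change of 1.48. A gene was tested when it reached 10 UMIs over both regions, and CA1 held most receptor UMIs. The tested genes are thus partly selected for being high in CA1, and this median does not describe all receptors. After thinning 5 of them could be tested and 1 was called higher in CA1, and 2 were in DESeq2 or without DG replicate 3. Olfr1423 had 21, 7, 24 and 2 UMIs in CA1 and 2, 1, 4 and 2 in DG, which did not overlap in CPM (log2 fold change 2.26, SE 0.59, adjusted p = 0.00149), but it was not called after thinning (adjusted p = 0.225, range 0.000529 to 0.295). Vmn2r57, with 5, 8, 9 and 1 UMIs in CA1 and 9, 10, 11 and 2 in DG, overlapped and was not called (adjusted p = 0.326). Vmn1r49 had 16, 4, 19 and 1 UMIs in CA1 and 1, 5, 5 and 1 in DG, with overlap in CPM. Vmn2r76 had 12, 8, 10 and 11 UMIs in CA1 and 1, 0, 2 and 0 in DG (3.57, SE 1.06, adjusted p = 0.000792, 11.8-fold by UMIs, 95% interval 3.77 to 59.7), the highest mean CPM of the receptors, but below that of Olfr1423 without CA1 replicate 4.

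Leaving genes with copies aside, the largest differences toward CA1 were chosen after the values were seen. Thbs4 (ENSMUSG00000021702, chromosome 13, 92751590 to 92794818), which encodes the matrix protein thrombospondin 4, was the only such gene among the first 12, with 17, 12, 15 and 3 UMIs in CA1 and 0, 1, 0 and 0 in DG. The DG replicates held 1 UMI in all, and the log2 fold change was 4.83 (SE 1.47, adjusted p = 7.64e-06, 40.7-fold by UMIs, 95% interval 6.96 to 1641); after thinning the adjusted p was 0.126, range 1.87e-07 to 0.168. Gm38073 (4.47, SE 0.67, adjusted p = 1.15e-09) and Gm37717 (4.21, SE 0.94, adjusted p = 2.32e-06, 22.5-fold by UMIs, 95% interval 7.42 to 112) lie on the same stretch of chromosome 1, from 124375578 and from 124824702, and were higher in CA1 in TE-permeabilized sections too (5.50 and 5.55). Gm37717 overlaps Gm28928 on the same strand, so its count is uncertain. Gm19410 (3.28, SE 0.53, adjusted p = 1.76e-07), which has no known role, and Gm4076 (3.17, SE 0.81, adjusted p = 0.000267) are also in the first 12 of this ranking, Gm19410 with an adjusted p of 0.142, range 1.59e-11 to 0.186 after thinning and Gm4076 with too few UMIs left to be tested. Gm4076 is a processed pseudogene that shares 8.82% of its words with other genes, mt-Nd5 among them, so its count is uncertain. Cplx3, which encodes a complexin of vesicle release, had 10, 9, 25 and 5 UMIs in CA1 and 0, 0, 1 and 1 in DG (log2 fold change 4.13, SE 1.12, adjusted p = 3.95e-05, 21.2-fold by UMIs, 95% interval 5.57 to 180.1); after thinning this was 2.68 (adjusted p = 0.0400, and 0.0511 with the replicate block). Cap1, Rnf130 and Rnf181, high in CA1 here, were near 0 in TE-permeabilized sections, and the interaction was called for Rnf130 (adjusted p = 0.0190) and Rnf181 (0.00846) but not Cap1 (0.0666). Cap1, for an actin-cycling protein, had 16, 13, 22 and 2 UMIs in CA1 and 0, 0, 2 and 0 in DG (log2 fold change 4.22, SE 1.08, adjusted p = 9.94e-06, 22.9-fold by UMIs, 95% interval 6.05 to 194, TE 0.49); its UMIs in DG were all in replicate 3, and too few UMIs were left after thinning to test it. Rnf130, for a ubiquitin ligase, had 12, 18, 17 and 2 UMIs in CA1 and 0, 2, 2 and 0 in DG (3.28, SE 0.80, adjusted p = 0.000104, TE -0.36). Rnf181, for another ubiquitin ligase, had 14, 15, 19 and 1 UMIs in CA1 and 2, 1, 0 and 0 in DG (3.58, SE 0.93, adjusted p = 0.000102, 14.1-fold by UMIs, 95% interval 4.56 to 70.9, TE -0.17; after thinning, adjusted p = 0.293, range 5.55e-06 to 0.359).

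Toward DG the first 12 included granule cell genes and Pou4f1, a gene of habenula. Il20rb (ENSMUSG00000044244, chromosome 9, 100457719 to 100486788), which encodes a subunit of an interleukin receptor, had no UMI in CA1 and 9, 19, 17 and 3 in DG, at least 18.5-fold higher in DG (adjusted p = 5.38e-07). Lgr6 (ENSMUSG00000042793, chromosome 1, 134983301 to 135105276), for a receptor that strengthens Wnt signals, had 3, 2, 2 and 1 UMIs in CA1 and 33, 89, 79 and 41 in DG. No CA1 replicate came near the DG range, and the log2 fold change was -5.07 (SE 0.53, adjusted p = 4.23e-14). Dsp (ENSMUSG00000054889, chromosome 13, 38151294 to 38198577), which encodes the junction protein desmoplakin and marks granule cells, had 6, 4, 2 and 0 UMIs in CA1 and 39, 116, 132 and 24 in DG. The CA1 replicates stayed at single-digit counts, and the log2 fold change was -4.76 (SE 0.47, adjusted p = 4.42e-14). Plk5 (-4.79, SE 0.81, adjusted p = 3.66e-09), for a polo-like kinase, and C1ql2 (-4.12, SE 0.30, adjusted p = 8.01e-16), for a secreted protein of mossy fibre synapses, did not overlap either. C1ql2 had 13.7, 16.4, 8.05 and 23.6 CPM in CA1 and 190.2, 242, 223 and 268 in DG, with DG values within a narrow band. Irx1 (-5.14, SE 1.59, adjusted p = 4.27e-06, 57.8-fold by UMIs, 95% interval 9.90 to 2326), Pou4f1 (-4.79, SE 1.00, adjusted p = 1.65e-07, 35.4-fold by UMIs, 95% interval 11.7 to 175) and Shox2 (-3.99, SE 0.96, adjusted p = 2.44e-05, 17.7-fold by UMIs, 95% interval 5.69 to 89.0) encode homeodomain factors, and Shox2 was not called after thinning (adjusted p = 0.0549, range 1.22e-07 to 0.0825). Vwa3b (-4.36, SE 0.93, adjusted p = 1.21e-06, 23.1-fold by UMIs, 95% interval 7.53 to 115) has no role that is well known in neurons. Gm43847 (-3.94, SE 1.00, adjusted p = 5.30e-05, 18.5-fold by UMIs, 95% interval 5.96 to 92.8) lies within Kcnd3 on the same strand, so its counts are uncertain. ENSMUSG00000095552, on an unplaced scaffold, had 0, 0, 6 and 0 UMIs in CA1 and 19, 62, 54 and 19 in DG (-4.78, SE 0.69, adjusted p = 2.04e-10). With TE it had 0 UMIs in DG, whereas the log2 fold changes with TE were -5.28 for Lgr6, -4.78 for Dsp and -4.29 for C1ql2.

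**Figure D2:**
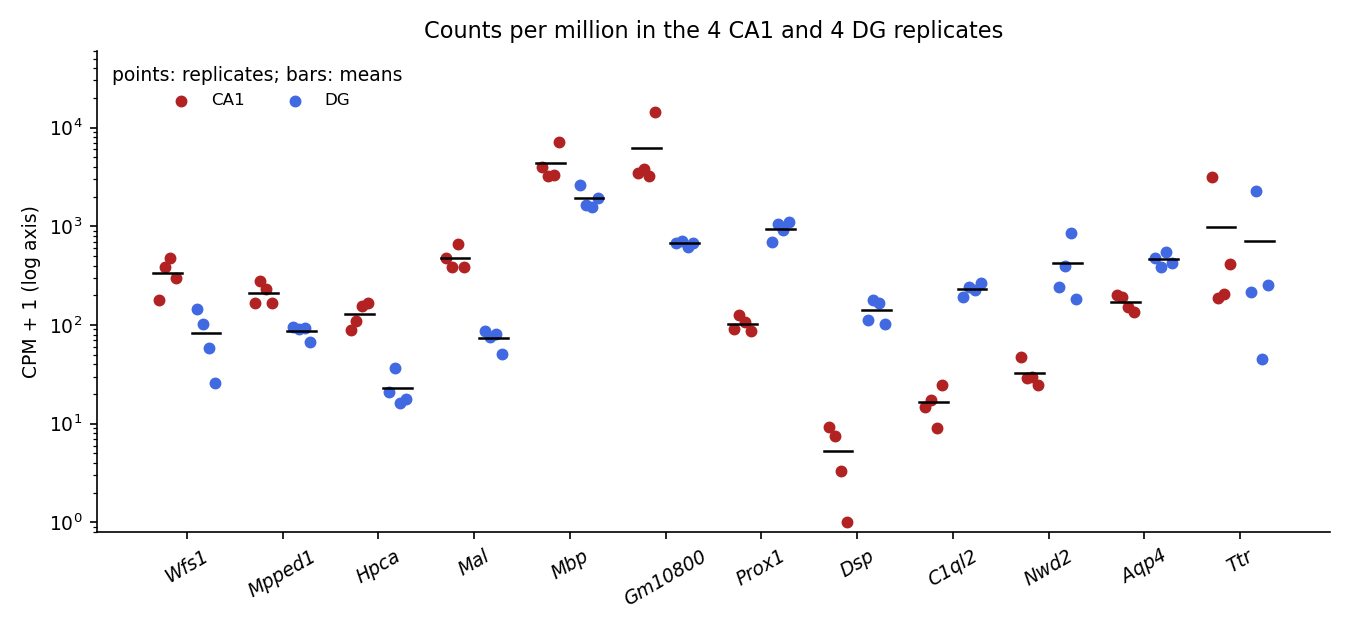
CPM plus 1 on a log axis for 12 genes in the 4 CA1 and 4 DG replicates, each point 1 replicate and each bar the group mean. Wfs1 and Mal were higher in every CA1 replicate and Prox1, Dsp and C1ql2 in every DG replicate, whereas Ttr overlapped.

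Of the CA1 pyramidal list 8 of 9 genes were tested, Nov being absent from the table, and all 8 were called higher in CA1, with a median log2 fold change of 2.35 and 7 calls left after thinning. Pou3f1, a POU factor of upper CA1 and cortex and the most abundant of the list, had 239, 513, 434 and 267 CPM in CA1 and 114, 74.4, 103 and 20.9 in DG. The regions did not overlap (log2 fold change 2.16, SE 0.25, adjusted p = 8.70e-09). Man1a, for a mannosidase of glycoprotein processing, had 115, 243, 194 and 102 CPM in CA1 and 36.9, 20.2, 27.9 and 33.5 in DG (log2 fold change 2.60, SE 0.28, adjusted p = 6.14e-10), and Fibcd1, for a chitin-binding receptor, was higher too (2.54, SE 0.46, adjusted p = 1.33e-05). Gpr161, for a receptor of primary cilia, overlapped between regions (3.06, SE 0.99, adjusted p = 0.00324, 9.52-fold by UMIs, 95% interval 2.99 to 48.5) and was not called after thinning (adjusted p = 0.247, range 0.000700 to 0.325). Mpped1 (1.29, SE 0.21, adjusted p = 7.87e-06) and Spink8 (1.53, SE 0.33, adjusted p = 0.000615) complete the list. Of the 5 genes shared by CA1 and CA3, 4 were called higher in CA1 and 1 in DG, with a median of 1.09. Meis2 (1.88, SE 0.36, adjusted p = 5.37e-05) and Neurod6 (0.91, SE 0.22, adjusted p = 0.00308), factors of pyramidal neurons, were higher in CA1 but not called after thinning (adjusted p = 0.0611, range 4.36e-07 to 0.0611 and 0.399, range 4.77e-05 to 0.399). Dkk3, a secreted protein of the Dickkopf family and the most abundant of the 5, had 306, 370.5, 459 and 291 CPM in CA1 and 253, 143, 165 and 121 in DG, without overlap but with DG replicate 1 close to CA1 replicate 4. Nectin3, for an adhesion protein of synapses, went the other way, with 41.0, 42.6, 42.6 and 15.7 CPM in CA1 and 105, 74.4, 97.7 and 75.4 in DG (log2 fold change -1.15, SE 0.25, adjusted p = 0.000671).

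Of the DG granule cell list 11 of 12 genes were called higher in DG and none in CA1, with a median of -2.85 (TE -3.01). Tdo2, for an enzyme of tryptophan breakdown, had 3, 3, 0 and 1 UMIs in CA1 and 11, 32, 20 and 14 in DG (log2 fold change -3.60, SE 0.65, adjusted p = 1.29e-06). Calb1, the calcium buffer calbindin of granule cells, had 31.5, 55.7, 46.0 and 15.7 CPM in CA1 and 142, 219, 188 and 167 in DG (log2 fold change -2.12, SE 0.24, adjusted p = 2.68e-09), with every DG replicate above every CA1 replicate. Trpc6, the one member not called, had 2, 5, 7 and 1 UMIs in CA1 and 1, 9, 7 and 2 in DG (adjusted p = 0.599).

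For CA2 and CA3 genes 10 of 12 were tested, 1 called higher in CA1 and 3 in DG, with a median of -0.32. Without CA1 replicate 1 these were 1 and 6. Both Pcp4 and Rgs14, strong in CA2, were highest among the CA1 replicates in replicate 1. Pcp4, a calmodulin regulator and the most abundant of the list, had 359.8, 152, 192 and 157 CPM in CA1 and 369, 296, 385 and 536 in DG, and its call toward DG (-0.80, SE 0.21, adjusted p = 0.00581) came with overlap and was lost after thinning (adjusted p = 0.189). Rgs14, a brake on plasticity, had 175, 105, 74.8 and 102 CPM in CA1 and 68.1, 48.1, 41.9 and 71.2 in DG, and its call (1.10, SE 0.26, adjusted p = 0.00176) was lost after thinning (adjusted p = 0.109). Grik4, for a kainate receptor subunit, was higher in DG (-1.45, SE 0.35, adjusted p = 0.00173; after thinning, adjusted p = 0.0946, range 0.000342 to 0.0946), and Trps1, a GATA-type repressor, was higher in DG as well (-0.85, SE 0.21, adjusted p = 0.00310).

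Of 6 mossy cell genes 3 were tested and 1 called, Calb2, for calretinin, with 1, 2, 3 and 0 UMIs in CA1 and 27, 42, 47 and 7 in DG (log2 fold change -4.44, SE 0.64, adjusted p = 4.97e-10). Csf2rb2, Glipr1 and Drd2 had too few UMIs to be tested, and the list median was -0.53. Of 13 tested genes of stem cells and young granule cells 3 were called higher in DG, with a median of -0.30. Mki67, expressed in dividing cells, had 2, 2, 6 and 0 UMIs in CA1 and 7, 20, 20 and 7 in DG (log2 fold change -2.60, SE 0.55, adjusted p = 0.000103), without overlap. Neurod1, which drives granule cell differentiation, had 23.3, 21.3, 21.9 and 7.86 CPM in CA1 and 79.5, 129, 174 and 109 in DG. All DG replicates were above all CA1 replicates (-2.58, SE 0.29, adjusted p = 9.49e-10). Tubb2b, a tubulin of young neurons, was higher in DG too (-1.69, SE 0.22, adjusted p = 1.19e-07), but 12.4% of its words are shared with other genes. Sox11, a factor of immature neurons, was not called (-0.30, SE 0.22, adjusted p = 0.378), and Eomes, Neurog2 and Draxin had too few UMIs to be tested. Of 13 interneuron genes 3 were called higher in CA1, with a median of 0.31. Vip, a peptide of interneurons that inhibit other interneurons, had 16, 20, 28 and 5 UMIs in CA1 and 1, 3, 10 and 0 in DG (log2 fold change 2.12, SE 0.51, adjusted p = 0.000701). Erbb4, the neuregulin receptor of interneurons, had 146, 98.4, 92.0 and 94.3 CPM in CA1 and 31.2, 48.1, 68.5 and 33.5 in DG, with no overlap (1.16, SE 0.25, adjusted p = 0.000552). Sst, the peptide somatostatin, was not called with 155, 336, 521 and 668 CPM in CA1 and 281, 318, 195 and 214 in DG (0.65, SE 0.24, adjusted p = 0.0630), but it was called without CA1 replicate 1 (adjusted p = 0.000870), without DG replicate 2 (0.0363), after thinning (0.0466), with the UMI correction (0.0469), without a filter (0.00641), with the replicate block (0.00853) and without genes that have copies elsewhere (0.0432). The parvalbumin gene Pvalb was not called (0.76, SE 0.43, adjusted p = 0.223). Of 4 Cajal-Retzius genes 3 were tested, with a median of -1.28, and 1 was called, Ndnf, a secreted factor, with overlap (-1.28, SE 0.33, adjusted p = 0.00371; after thinning, adjusted p = 0.337, range 0.000601 to 0.388). Reln, for reelin, was the most abundant of them and was not called (-0.64, SE 0.37, adjusted p = 0.233).

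Genes of thalamus and habenula, which lie next to DG in the section, were higher in DG. 11 of 14 were called, all higher in DG, with a median of -2.25 (TE -2.45), and 10 after thinning. The list summed to 375, 380.3, 285 and 220.0 CPM in CA1 and 1385, 1481, 2411 and 934 in DG, with replicate 3 of DG highest. Nwd2, a habenula gene and the most abundant of the list, had 46.5, 27.9, 28.8 and 23.6 CPM in CA1 and 244, 397, 855 and 184 in DG. DG replicate 3 held more than 2 times each other DG value, all of which were above CA1, and the log2 fold change was -3.69 (SE 0.33, adjusted p = 4.87e-12). Pou4f1, the habenular homeodomain factor, had 2, 1, 0 and 0 UMIs in CA1 and 11, 21, 58 and 2 in DG, and Tac2, a tachykinin of the medial habenula, 5, 2, 4 and 0 UMIs in CA1 and 4, 43, 65 and 2 in DG (-3.36, SE 0.63, adjusted p = 4.26e-06), with the same replicate highest. Zic1 (-3.38, SE 0.29, adjusted p = 6.57e-13) and Zic4 (-2.97, SE 0.44, adjusted p = 2.19e-07), neighbouring zinc finger genes, Slc17a6, the vesicular glutamate transporter of thalamus (-2.49, SE 0.28, adjusted p = 2.84e-09), and Prkcd, a thalamic kinase (-2.02, SE 0.38, adjusted p = 5.78e-05), did not overlap between regions. Syt9, a synaptotagmin also strong in habenula, overlapped (8, 2, 3 and 0 UMIs in CA1 and 19, 26, 82 and 1 in DG) and was highest in DG replicate 3 as well (-3.32, SE 0.59, adjusted p = 2.72e-06). None of the 14 was without UMIs in CA1, Gpr151, of the habenula, had 1, 2, 1 and 0 UMIs in CA1 and 0, 2, 7 and 0 in DG, and the part of neighbouring tissue in the difference between CA1 and DG was not tested. Of 8 neocortex genes 2 were called higher in CA1, with a median of 0.02, and neither was called in DESeq2 or without CA1 replicate 3. Lamp5, a membrane protein of some interneurons and superficial cortex, overlapped (1.10, SE 0.31, adjusted p = 0.00921), and its call was lost without CA1 replicate 2 (adjusted p = 0.0738), without CA1 replicate 3 (0.0527), without DG replicate 2 (0.0689) and in DESeq2 (0.0509).

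Myelin genes were higher in CA1 throughout. All 10 oligodendrocyte genes were called, with a median of 1.65 (TE 1.68), and all 10 also after thinning and in DESeq2. Their sum was 13093, 10624, 11645 and 20911 CPM in CA1 and 6086, 3744, 3894 and 4136 in DG, and the lowest CA1 replicate was above the highest DG replicate. Mbp, for myelin basic protein, was the most abundant, with 3969, 3209.8, 3324 and 7135 CPM in CA1 and 2643, 1627, 1562 and 1951 in DG (log2 fold change 1.18, SE 0.21, adjusted p = 6.31e-05). Mal, a raft protein of compact myelin, had 480.2, 385, 657 and 385 CPM in CA1 and 85.2, 74.4, 79.96 and 50.2 in DG and the largest log2 fold change of the list, 2.70 (SE 0.21, adjusted p = 1.88e-13). Opalin (1.85, SE 0.29, adjusted p = 3.29e-06), Cldn11 (1.80, SE 0.20, adjusted p = 6.13e-09) and Mobp (1.77, SE 0.18, adjusted p = 1.003e-09), proteins of the myelin sheath and its loops, also did not overlap. Whether the CA1 area took in more white matter was not tested. Of 5 precursor genes 3 were called higher in CA1, with a median of 0.73, and none of them in DESeq2, after thinning or without CA1 replicate 1 or 3; Olig1, with 4, 3, 3 and 1 UMIs in CA1 and none in DG, was at least 3.17-fold higher, and the median is the same at that limit. Olig2, the lineage factor and most abundant of the 5, had 87.6, 57.4, 73.6 and 70.7 CPM in CA1 and 45.4, 48.1, 45.7 and 29.3 in DG, without overlap (0.73, SE 0.25, adjusted p = 0.0353), and its call was lost without CA1 replicate 1 (adjusted p = 0.131), without CA1 replicate 3 (0.0760), without DG replicate 2 (0.0507), without DG replicate 3 (0.0776), without DG replicate 4 (0.0876), after thinning (0.250), in DESeq2 (0.102) and without a filter (0.0510).

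Of 12 astrocyte genes 4 (2 without DG replicate 3) were called higher in DG and none in CA1, with a median of 0.12 that was -0.39 after thinning. Their sum was 5011, 5241, 4731 and 5092 CPM in CA1 and 5365, 5396, 6117 and 6874 in DG, without overlap. Aqp4, the water channel of astrocyte endfeet, had 198, 192, 152 and 134 CPM in CA1 and 477, 389, 548 and 427 in DG. The lowest DG replicate was above the highest CA1 replicate (-1.41, SE 0.18, adjusted p = 1.19e-07). Slc1a3, the glutamate transporter GLAST, which radial stem cells also carry, had 1153, 1261, 947 and 1367 CPM in CA1 and 1655, 1742, 1938 and 2537 in DG, without overlap (-0.73, SE 0.17, adjusted p = 0.00217; after thinning, adjusted p = 0.0728, range 5.07e-05 to 0.0728). Of 11 microglia genes 1 was called, Csf1r, the receptor on which microglia depend, higher in CA1 (0.87, SE 0.30, adjusted p = 0.0326), and the call was lost without CA1 replicate 1 (adjusted p = 0.0651), without CA1 replicate 3 (0.101), without DG replicate 1 (0.0692), without DG replicate 3 (0.118), without DG replicate 4 (0.0513), after thinning (0.592), in DESeq2 (0.109) and without a filter (0.0519). The list median was -0.02. Of 13 vessel genes 1 was called, Acta2, the actin of smooth muscle, with 21.9, 41.0, 46.0 and 62.9 CPM in CA1 and 88.0, 127, 152 and 75.4 in DG (-1.59, SE 0.26, adjusted p = 1.50e-05), and the median was -0.23. Of 7 tested meningeal genes 4 were called higher in DG, with a median of -1.34 and sums of 108, 55.7, 109 and 118 CPM in CA1 and 190.2, 186, 319 and 184 in DG. Col1a2, a collagen and the most abundant of them, did not overlap (-1.34, SE 0.28, adjusted p = 0.000336), and 1 call of the list was left in DESeq2 or without CA1 replicate 2. Igf2 and Slc47a1 were not tested, Igf2 because it was absent from the table, and the part of meninges in the result was not tested. Of 3 tested haemoglobin genes 1 was called, Hbb-bt, higher in DG, which shares 57.6% of its words with other genes, and the call was lost without CA1 replicate 1 (adjusted p = 0.119), without CA1 replicate 2 (0.127), without CA1 replicate 3 (0.0563), without CA1 replicate 4 (0.0503), without DG replicate 3 (0.766), after thinning (0.111), in DESeq2 (0.574), with the stricter filter (0.0882) and with CA3 in the fit (0.0672). Without DG replicate 3 its log2 fold change was 0.23, and the list median was -0.83.

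Choroid plexus genes showed how much 1 replicate can carry. The list summed to 5086, 779, 1032 and 1469.5 CPM in CA1 and 576, 3367, 379 and 540.1 in DG, and of 8 genes tested 2 were called higher in CA1, with a median of 0.90 and -2.26 in TE-permeabilized sections. Ttr, for the thyroxine carrier transthyretin and the most abundant of the list, had 2284, 115, 180 and 53 UMIs in CA1 and 75, 1483, 35 and 60 in DG. CA1 replicate 1 and DG replicate 2 were far above the others, the regions overlapped, and the gene was not called (0.50, SE 0.59, adjusted p = 0.616). It was called with the replicate block (adjusted p = 9.00e-05), but that block pairs replicates by number, and correlations across genes were higher for other pairs. Without CA1 replicate 1 its log2 fold change turned to -1.54 and was called (adjusted p = 0.0371, range 9.00e-05 to 0.951), and without DG replicate 2 it was 2.69, also called (adjusted p = 0.000265). Enpp2, for the enzyme autotaxin, followed the same replicates, with 1330, 338, 688 and 125 UMIs in CA1 and 124, 654, 243 and 65 in DG, and its call (1.07, SE 0.28, adjusted p = 0.00535) was lost without CA1 replicate 1 (adjusted p = 0.0987) and in DESeq2 (0.212). Kl, for klotho, had 58, 18, 19 and 9 UMIs in CA1 and 2, 14, 6 and 3 in DG, without overlap in CPM (1.89, SE 0.45, adjusted p = 0.00112), and its call was lost after thinning (adjusted p = 0.111). Folr1, Clic6 and Kcne2, which define the plexus, had no UMI in CA1 replicate 4 or in DG replicate 4, and the part of plexus tissue was not tested.

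**Figure D3:**
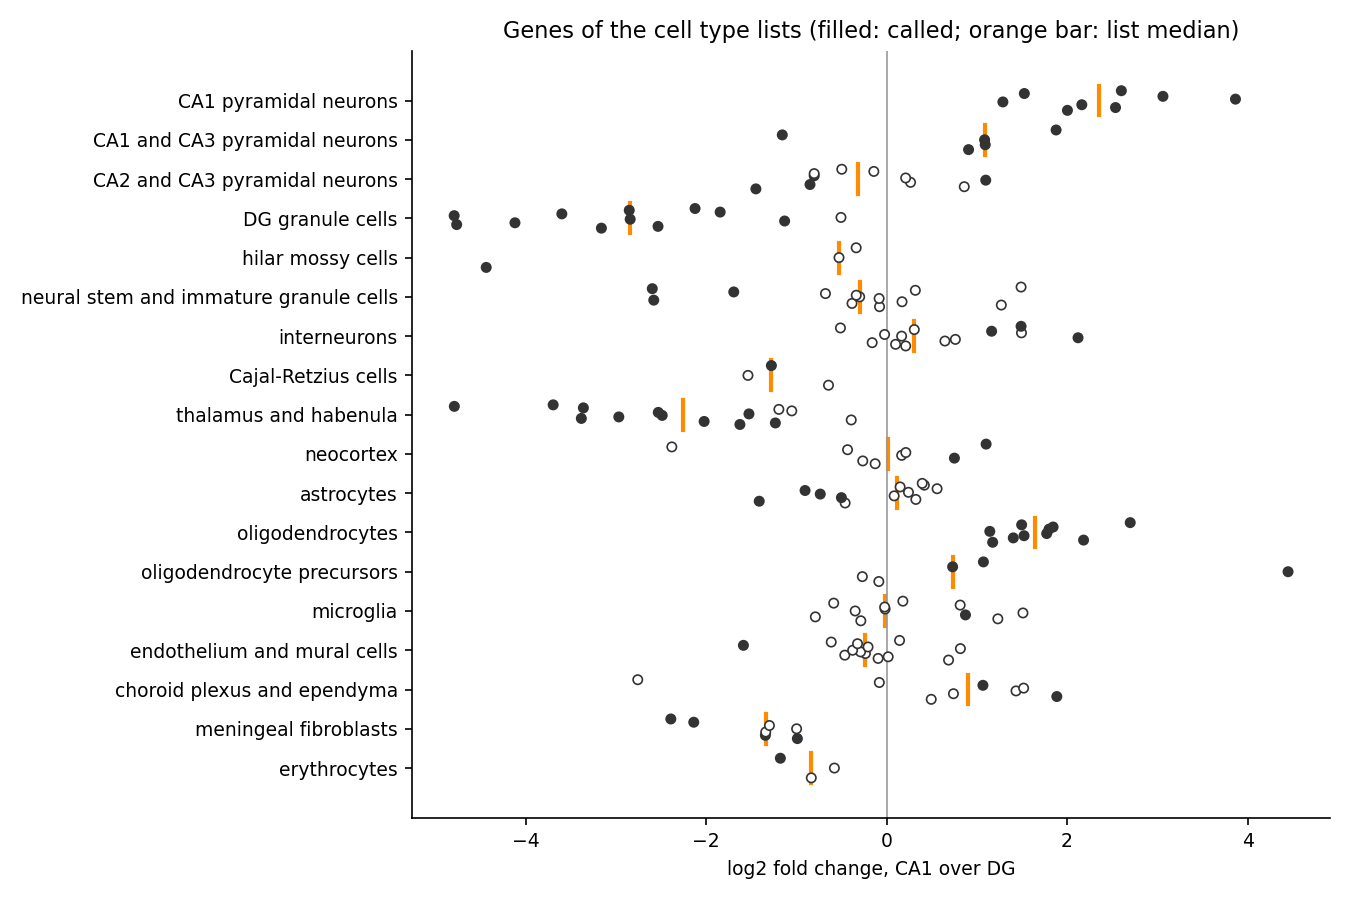
Log2 fold change of CA1 over DG of every tested gene in the cell type lists, each point 1 gene, filled where called, with a bar at the list median. The 10 oligodendrocyte genes lie above 0 and all of the 14 thalamus and habenula genes below it, and the medians are 1.65 and -2.25.

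Among 30 transcription factors of excitatory neurons 8 were called higher in CA1 and 5 in DG, with a median of -0.02. Neurod2 (-0.61, SE 0.17, adjusted p = 0.00843) and Mef2c (-0.65, SE 0.18, adjusted p = 0.00742), which control neuronal maturation and synapse number, were higher in DG without overlap, and Mef2c was not called after thinning (adjusted p = 0.0967, range 0.000624 to 0.0967). Emx1, a factor of the dorsal forebrain, overlapped (-1.41, SE 0.34, adjusted p = 0.00192; after thinning, adjusted p = 0.736, range 0.000456 to 0.783). Zbtb20, needed for hippocampal identity and 1 of the 8 most abundant genes, was not called, with 3087 ± 331 CPM in CA1 and 3892 ± 596 in DG (-0.33, SE 0.17, adjusted p = 0.188).

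Immediate early genes rise within minutes of neuronal activity. Of 26 tested 10 were called higher in CA1 and 2 in DG, with a median of 0.55 (TE 0.80). Only part of these calls held in other settings, 2 toward CA1 after thinning and 4 in DESeq2 or without CA1 replicate 2 or 3, with 2 toward DG in each. Egr1, a zinc finger factor, had 65.7, 88.5, 113 and 126 CPM in CA1 and 19.9, 10.9, 22.8 and 0 in DG, and no DG replicate reached the lowest CA1 value (2.58, SE 0.36, adjusted p = 1.19e-07). Nr4a1, an orphan nuclear receptor, had 82.1, 77.0, 98.9 and 47.2 CPM in CA1 and 45.4, 14.0, 16.5 and 12.6 in DG, again without overlap (log2 fold change 1.96, SE 0.33, adjusted p = 8.41e-06). Fos had 9, 6, 11 and 4 UMIs in CA1 and 0, 2, 2 and 1 in DG (2.33, SE 0.77, adjusted p = 0.0102), with few molecules and an adjusted p of 0.0741, range 0.00636 to 0.0983 after thinning. Jun went the other way, with 62.9, 44.3, 46.0 and 62.9 CPM in CA1 and 139, 203, 193 and 180.0 in DG. Its DG values all exceeded its CA1 values (-1.79, SE 0.22, adjusted p = 2.54e-08). Bdnf, the neurotrophin of mossy fibres, was also higher in DG, with 124, 86.9, 123 and 55.0 CPM in CA1 and 227, 206, 221 and 172 in DG (log2 fold change -0.98, SE 0.20, adjusted p = 0.000333). Fosb had too few UMIs to be tested.

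Among 23 genes of AMPA and NMDA receptors 3 were called higher in CA1 and 4 in DG, with a median of -0.09. These were 3 and 2 without DG replicate 2, and 4 and 2 in DESeq2. Grin2b, for the NMDA subunit that slows the current, had 958, 1375, 1365 and 943 CPM in CA1 and 712, 932, 680.3 and 586 in DG, without overlap (0.67, SE 0.18, adjusted p = 0.00568), while Gria2, the AMPA subunit that blocks calcium entry and the most abundant of the list, was not called (-0.26, SE 0.17, adjusted p = 0.306). The scaffold genes Dlg2 (1.15, SE 0.19, adjusted p = 1.34e-05) and Dlg1 (1.12, SE 0.27, adjusted p = 0.00207) were higher in CA1, Dlg1 with overlap and an adjusted p of 0.215, range 0.000311 to 0.215 after thinning; Dlg2 holds 22 annotated genes on its own strand, so its count is uncertain. Cnih3, for a cornichon that holds AMPA receptors at the surface, had 10.9, 9.84, 19.6 and 15.7 CPM in CA1 and 79.5, 121, 82.5 and 87.9 in DG, higher in every DG replicate (-2.73, SE 0.32, adjusted p = 2.54e-09). Grin2d, an NMDA subunit of interneurons and others (-1.15, SE 0.25, adjusted p = 0.000905), was higher in DG as well. Of 14 kainate and metabotropic receptor genes 2 were called higher in CA1 and 6 in DG, with a median of -0.37. Grm2 (-2.002, SE 0.45, adjusted p = 0.000511), a presynaptic receptor, was higher in DG, with an adjusted p of 0.545, range 0.000151 to 0.588 after thinning. Grm3, a receptor of glia and neurons, had 222, 166, 224 and 464 CPM in CA1 and 148, 71.3, 118 and 109 in DG and was higher in CA1 (1.16, SE 0.23, adjusted p = 0.000396). Of 14 GABA receptor genes 3 were called, all higher in DG, with a median of -0.10. Gabra5, for extrasynaptic receptors (-0.71, SE 0.18, adjusted p = 0.00380), was 1 of them.

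Of 40 potassium channel genes 7 were called higher in CA1 and 10 in DG, with a median of -0.12. Kcnh7, for a channel of the ether-a-go-go family that dampens firing, had 157, 251, 269 and 86.4 CPM in CA1 and 25.5, 54.3, 57.1 and 58.6 in DG. Its CA1 values were all above those of DG (2.04, SE 0.26, adjusted p = 3.73e-08). Kcnk1, a leak channel, had 129, 126, 139 and 118 CPM in CA1 and 307, 327, 307 and 259.6 in DG, higher in each DG replicate (-1.22, SE 0.18, adjusted p = 1.75e-06). Kcnt2, a sodium-activated channel (-1.63, SE 0.32, adjusted p = 0.000139), Kcnd3, an A-type channel (-1.18, SE 0.28, adjusted p = 0.00155), and Dpp6, which tunes A-type channels (-1.43, SE 0.20, adjusted p = 7.20e-07), were higher in DG, and Kcnv1, a silent subunit (1.11, SE 0.26, adjusted p = 0.00159), in CA1. Of 26 other channel genes 4 were called higher in CA1 and 6 in DG, with a median of 0.05. Scn3a, a sodium channel of young neurons, had 97.1, 108, 116 and 78.6 CPM in CA1 and 249.8, 465, 492 and 364 in DG, higher in every DG replicate (-1.94, SE 0.20, adjusted p = 5.36e-10). Scn4b, a sodium channel subunit (2.002, SE 0.54, adjusted p = 0.00282), was higher in CA1 and Cacna1c, an L-type calcium channel (-1.14, SE 0.23, adjusted p = 0.000257), in DG.

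Of 33 genes of calcium-binding proteins and calcium-dependent kinases 8 were called in each direction, with a median of 0.10. Hpca, the calcium sensor hippocalcin, had 88.9, 108, 155 and 165 CPM in CA1 and 19.9, 35.7, 15.2 and 16.7 in DG. The lowest CA1 value was more than 2 times the highest DG value (2.44, SE 0.30, adjusted p = 1.16e-08). Prkcb, a protein kinase C, had 1161, 1838, 1648 and 1407 CPM in CA1 and 968, 737, 773 and 569 in DG (0.99, SE 0.18, adjusted p = 8.87e-05), and Camk4 (0.98, SE 0.18, adjusted p = 6.70e-05) was also higher in CA1. Calm2, 1 of the 3 calmodulin genes, was higher in CA1 (1.46, SE 0.17, adjusted p = 2.06e-08), with 9.72% of its words shared with pseudogenes. Ncs1, a neuronal calcium sensor (0.76, SE 0.20, adjusted p = 0.00671), lost its call without CA1 replicate 2 (adjusted p = 0.0942) and after thinning (0.220). Toward DG, Ncald, for neurocalcin (-0.97, SE 0.19, adjusted p = 0.000203), did not overlap, and Ppp3ca, for calcineurin, the most abundant of the list and 1 of the 8 most abundant genes, was not called, with 3149 ± 343 CPM in CA1 and 3529 ± 429 in DG (-0.16, SE 0.17, adjusted p = 0.565). Of 35 tested genes of neuromodulators and peptides 3 were called in each direction, with a median of -0.08. Npy2r, the presynaptic receptor for neuropeptide Y, had 11, 6, 1 and 0 UMIs in CA1 and 17, 42, 42 and 13 in DG, without overlap (-2.82, SE 0.45, adjusted p = 1.29e-06). Chrm3, a muscarinic receptor, had 134, 195, 132 and 70.7 CPM in CA1 and 71.0, 49.6, 66.0 and 50.2 in DG, where CA1 replicate 4 reached into the DG range (1.25, SE 0.23, adjusted p = 9.95e-05). Htr1b, a serotonin receptor (2.74, SE 0.80, adjusted p = 0.00195), overlapped as CA1 replicate 4 had no UMI. Pdyn, the precursor of dynorphins in mossy fibres, had 3, 2, 0 and 0 UMIs in CA1 and 5, 9, 26 and 2 in DG (-3.06, SE 0.80, adjusted p = 0.000506; after thinning, adjusted p = 0.340, range 4.47e-05 to 0.381). Among the DG replicates Pdyn was highest in replicate 3, as the habenula genes Nwd2, Pou4f1 and Tac2 were, and the part of neighbouring tissue in its difference was not tested. Of 9 neurotrophin genes 1 was called higher in CA1 and 2 in DG (1 without DG replicate 1), with a median of -0.12. Sorcs3, a sorting receptor, was higher in CA1 (0.74, SE 0.21, adjusted p = 0.0100), with its call lost without CA1 replicate 2 (adjusted p = 0.0641). Of 9 corticosteroid genes both called ones were the receptors, higher in CA1, and the median was 0.09. Nr3c2, the mineralocorticoid receptor, had 145, 149, 151 and 118 CPM in CA1 and 51.1, 88.4, 73.6 and 33.5 in DG, without overlap (1.11, SE 0.22, adjusted p = 0.000258), and Nr3c1, the glucocorticoid receptor (0.75, SE 0.19, adjusted p = 0.00337), was not called after thinning (adjusted p = 0.274, range 0.000564 to 0.274).

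Of 36 genes of G protein signalling 7 were called higher in CA1 and 6 in DG, with a median of 0.21. Toward DG 3 were left without CA1 replicate 3 or DG replicate 3, and 2 after thinning. Pde1a had 293, 302, 515 and 322 CPM in CA1 and 150.4, 91.5, 128 and 105 in DG and was higher in CA1 (1.61, SE 0.20, adjusted p = 8.18e-08), as was Pde1c (1.83, SE 0.49, adjusted p = 0.00297). Pde1b had 49.2, 67.2, 87.4 and 110.0 CPM in CA1 and 184, 247, 162 and 147 in DG and was higher in DG (-1.37, SE 0.22, adjusted p = 1.12e-05), and neither Pde1a nor Pde1b overlapped. Gnai1, an inhibitory subunit (1.92, SE 0.25, adjusted p = 9.10e-08), and Gng3 (1.77, SE 0.32, adjusted p = 4.44e-05) were higher in CA1 and Gng7 (-1.18, SE 0.18, adjusted p = 4.17e-06) in DG. Of 42 genes of vesicle release 3 were called higher in CA1 and 12 in DG, with a median of -0.28, against 0.10 in TE-permeabilized sections. Syt7, the synaptotagmin of facilitation at mossy fibres and the most abundant of the list, had 1175, 1338, 1193 and 1265 CPM in CA1 and 3792, 3175, 2394 and 3269.7 in DG. Each DG replicate was more than 1.5 times the highest CA1 replicate (-1.35, SE 0.17, adjusted p = 1.61e-07). Stxbp6 (-2.84, SE 0.29, adjusted p = 7.09e-11), Syt17 (-1.95, SE 0.38, adjusted p = 8.20e-05) and Rph3a, for rabphilin (-1.72, SE 0.19, adjusted p = 4.44e-09), were higher in DG, and Sv2b (0.99, SE 0.22, adjusted p = 0.000834) and the priming factor Unc13a (0.82, SE 0.17, adjusted p = 0.000591) in CA1, each without overlap.

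Of 27 cadherin genes 6 were called in each direction, with a median of -0.02. Pcdh8, an activity-regulated protocadherin, had 28.7, 31.1, 11.5 and 39.3 CPM in CA1 and 133, 139.6, 166 and 155 in DG, with DG values at least 3 times those of CA1 (-2.61, SE 0.27, adjusted p = 3.49e-10). Cdh8 (-1.32, SE 0.21, adjusted p = 6.54e-06), Cdh12 (-1.08, SE 0.20, adjusted p = 0.000127) and Pcdh17 (-0.97, SE 0.20, adjusted p = 0.000472) were higher in DG and Cdh6 (1.22, SE 0.26, adjusted p = 0.000624) and Cdh11 (0.81, SE 0.21, adjusted p = 0.00424) in CA1, all without overlap. Of 61 genes of guidance and adhesion 14 were called higher in CA1 and 13 in DG, with a median of 0.04. Sema5a, a semaphorin that limits granule cell synapses, had 115, 73.8, 114 and 78.6 CPM in CA1 and 363, 559.9, 514 and 423 in DG. The log2 fold change was -2.24 (SE 0.19, adjusted p = 7.06e-12). Nrp2, a semaphorin receptor of mossy fibres (-2.19, SE 0.21, adjusted p = 4.62e-11), Lrrtm4, a synapse organizer of granule cells (-1.99, SE 0.28, adjusted p = 6.14e-07), Ntng1 (-2.53, SE 0.30, adjusted p = 5.61e-09) and Slit2 (-1.74, SE 0.23, adjusted p = 1.66e-07) were higher in DG without overlap. Toward CA1, Tenm3, a teneurin that matches CA1 to subiculum, had 47.9, 151, 94.3 and 70.7 CPM in CA1 and 19.9, 29.5, 38.1 and 20.9 in DG (1.67, SE 0.31, adjusted p = 6.14e-05), and Sema3e (1.54, SE 0.25, adjusted p = 1.14e-05), its receptor Plxnd1 (3.31, SE 0.97, adjusted p = 0.000736, 10.97-fold by UMIs, 95% interval 3.48 to 55.5) and Efnb3 (1.44, SE 0.27, adjusted p = 7.22e-05) also did not overlap, whereas Adgrl2 did (1.21, SE 0.32, adjusted p = 0.00442). Of 30 matrix genes 5 were called higher in CA1 and 7 in DG, with a median of -0.04; 2 toward CA1 were left in DESeq2 or without DG replicate 2. Col11a1 had 295, 223, 175 and 149 CPM in CA1 and 39.7, 43.4, 52.0 and 79.5 in DG, higher in each CA1 replicate (2.09, SE 0.24, adjusted p = 3.42e-09), and Hapln4, of perineuronal nets, was higher too (1.21, SE 0.23, adjusted p = 0.000109). Npnt, for nephronectin, had 45.1, 16.4, 26.5 and 7.86 CPM in CA1 and 176, 257, 157 and 226 in DG, higher in each DG replicate (-2.85, SE 0.27, adjusted p = 2.77e-11), as were Smoc2 (-3.28, SE 0.44, adjusted p = 9.61e-09), Thsd7a (-1.78, SE 0.22, adjusted p = 3.60e-08), Col25a1 (-0.82, SE 0.21, adjusted p = 0.00508) and the abundant Sparcl1 (-0.62, SE 0.16, adjusted p = 0.00616). Of 30 tested Wnt and BMP genes 3 were called higher in CA1 and 7 in DG, with a median of -0.39; without CA1 replicate 3, as in DESeq2, these were 1 and 3. Smad3, which carries TGF-beta signals to the nucleus, had 27.4, 32.8, 33.4 and 47.2 CPM in CA1 and 128, 166, 145 and 218 in DG, higher in every DG replicate (-2.30, SE 0.24, adjusted p = 5.36e-10), and Tcf7l2, a Wnt effector that is strong in thalamus, was higher in DG too (-1.62, SE 0.22, adjusted p = 2.80e-07).

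Of 78 tested cytosolic ribosomal protein genes 51 were called higher in CA1 and 1 in DG, with a median of 0.91 and 0.23 in TE-permeabilized sections. Toward CA1 this was 32 of 75 after thinning, 39 in DESeq2 and 38 to 48 when 1 replicate was left out. 67 of the 78 share sequence with other genes, and the median of the others, in the fit without genes that have copies, was 0.52, so part of this shift is in genes whose counts are uncertain. Of these 11 others 5 were called higher in CA1 and 1 in DG. Rpl4, the most abundant and the one called higher in DG (-0.61, SE 0.17, adjusted p = 0.0109), overlapped and lost its call without CA1 replicate 2 (adjusted p = 0.0546), without CA1 replicate 3 (0.0620) and after thinning (0.116). Of 82 nuclear genes of the respiratory chain 22 were called higher in CA1 and 1 in DG, with a median of 0.39. Toward CA1 this was 14 without CA1 replicate 3, 12 after thinning and 15 in DESeq2. Of 35 proteasome genes 2 were called in each direction (median -0.15), and of 287 Zfp genes 9 (4 without DG replicate 2) higher in CA1 and 14 in DG (median -0.11), shares at or below those over all genes. Of 16 glycolytic enzymes 3 were called higher in CA1 and 2 in DG, with a median of 0.06. Leaving out CA1 replicate 1, 2 or 3 or DG replicate 3 left 1 of the latter. Gapdh had 40, 68, 250 and 16 UMIs in CA1 and 2, 9, 4 and 1 in DG, with replicate 3 of CA1 highest (log2 fold change 4.21, SE 0.54, adjusted p = 3.95e-10), but its sequence recurs in 222 other annotated genes. Of 23 heat shock and chaperonin genes 5 (3 without CA1 replicate 3 or DG replicate 4) were called higher in CA1 and 1 in DG, with a median of 0.22 that was -0.14 without genes that have copies, so the list had no one direction. Cryab, a small heat shock protein of oligodendrocytes, had 510.3, 311, 429 and 582 CPM in CA1 and 238, 177, 190.4 and 214 in DG, without overlap (1.14, SE 0.19, adjusted p = 1.70e-05). Hspa8 (2.46, SE 0.41, adjusted p = 3.37e-06) has many copies, with 1 UMI in CA1 replicate 4. Of 25 microtubule genes 4 were called higher in CA1 and 5 in DG, with a median of -0.21. Without CA1 replicate 3 the latter were 3. Map2 (-0.64, SE 0.17, adjusted p = 0.00559) and Map1a (-0.65, SE 0.17, adjusted p = 0.00561), which stabilize dendritic microtubules, were higher in DG without overlap, and Map4 (0.64, SE 0.17, adjusted p = 0.00468) and Tubb4a, a tubulin rich in oligodendrocytes (1.49, SE 0.27, adjusted p = 5.69e-05), in CA1. Map1b, the most abundant (-0.59, SE 0.16, adjusted p = 0.00974), lost its call without CA1 replicate 3 (adjusted p = 0.0643) and after thinning (0.102). Of 9 nuclear-retained long noncoding RNAs 2 were called, both higher in DG, with a median of 0.15. 1 was left in DESeq2, after thinning or without CA1 replicate 1 or 3 or DG replicate 4. Snhg14, the host of imprinted small nucleolar RNAs, had 934, 1051, 888 and 660.1 CPM in CA1 and 1473, 1284, 1182 and 1541 in DG, without overlap (-0.61, SE 0.17, adjusted p = 0.00914); it holds 211 annotated genes on its own strand, so its count is uncertain. Meg3, the most abundant, was not called (0.15, SE 0.17, adjusted p = 0.599). By annotated type, 1058 genes of the type TEC, gene models still to be checked by experiment, had a median of -0.21 with 34 called higher in CA1 and 130 in DG, and 338 antisense genes a median of -0.24 with 5 and 31, so calls of these classes leaned to DG. Protein-coding genes had a median of 0.04 (1158 and 1010 of 12392).

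The difference between CA1 and DG was not the same in HCl- and TE-permeabilized sections for 1.41% of 16533 genes. This came from a test of the interaction of region and permeabilization on 16 replicates. CA1 over DG was higher with HCl than with TE for 144 of these 233 genes and lower for 89. The larger side depended on the setting: with the replicate block 257 were higher and 322 lower, and after thinning 47 and 12. The count hung on single replicates: it was 147 without HCl CA1 replicate 1, 148 without HCl CA1 replicate 3 and 149 without HCl DG replicate 4. Leaving out TE replicates gave 146 without TE CA1 replicate 1, 135 without TE CA1 replicate 2, 110 without TE DG replicate 1, 149 without TE DG replicate 2 and 125 without TE DG replicate 3, and the other 8 fits that left out 1 replicate lay between 157 and 222. Of the calls, 50 were genes with copies, 47 of them higher with HCl. The 6 smallest p-values all belonged to mitochondrial genes or their nuclear copies. The interaction, as a difference of log2 fold changes, was 9.40 for Gm10925 (adjusted p = 4.71e-28), 6.60 for Gm28437 (adjusted p = 6.15e-23) and 4.48 for mt-Co2 (adjusted p = 7.18e-15). It was 4.06 for Gm13341 (adjusted p = 2.77e-15), which aligns with mt-Co2, 3.63 for Gm28661 (adjusted p = 2.83e-14) and 2.88 for Gm13339 (adjusted p = 3.09e-12). For these 6 genes CA1 and DG were apart with HCl, at log2 fold changes from 3.57 for Gm13339 to 7.30 for Gm10925, and nearer to each other with TE, where Gm10925 was higher in DG. Genes that share under 10% of their words also differed. Dlg2 had an interaction of 1.43 (adjusted p = 0.000385), with a log2 fold change of -0.30 in TE-permeabilized sections. Nr3c2 had 1.45 (adjusted p = 0.00439), Ncs1 1.37 (adjusted p = 0.00797), Efnb3 1.45 (adjusted p = 0.0427) and Calm2 0.91 (adjusted p = 0.0228), all higher toward CA1 with HCl. Toward DG the interaction was -1.42 for Smad3 (adjusted p = 0.0157), -0.93 for Dpp6 (adjusted p = 0.0432) and -0.85 for Gabra5 (adjusted p = 0.0377). Wfs1 and Prox1 had no called interaction (-0.93, adjusted p = 0.295, and -0.22, adjusted p = 0.787). Among the choroid plexus genes Ttr (4.50, adjusted p = 0.00794), Enpp2 (2.16, adjusted p = 0.00666), Kl (2.17, adjusted p = 0.0491) and Clic6 (adjusted p = 0.0190; 0 UMIs in CA1 with TE) had one, while the thalamus and habenula list had none at this threshold. HCl and TE replicates came from different libraries, so permeabilization and library cannot be told apart.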

How the data were processed

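The authors extracted barcodes and UMIs with UMI-tools 1.0.0, trimmed adapters with Trim Galore!, aligned reads to GRCm38 with HISAT2 2.1.0, assigned them to genes with featureCounts 1.6.4, and deposited UMI counts per gene without normalization. The submitters' processing notes also name DESeq2 1.20.0. The table held 32546 genes in 48 replicates, and 32530 of the genes had a position in the GENCODE annotation of GRCm38. CPM, fold changes and tests were computed from these counts. Counts of genes that overlap others on the same strand are uncertain, among them Neurod1 with Cerkl, and Erbb4 and Lrrtm4 with 8 genes each. CA1 and DG were compared in 8 replicates with edgeR 4.0.16 (quasi-likelihood F test, TMM, Benjamini-Hochberg) in R 4.3.3, genes with at least 10 UMIs summed being tested. The interaction with permeabilization used 16 replicates. Python 3.11.15, numpy 2.4.6, pandas 2.3.3, scipy 1.17.1, numba 0.67.0 and matplotlib 3.10.9 served for the rest, including exact permutation tests, two-sided. Depth ranged from 127253 to 869363 UMIs per replicate. Ratios by UMIs carry exact Clopper-Pearson 95% intervals, which, like the floor of 3 counts for a gene without UMIs in a region, cover counting error only. Shared sequence was measured on every 8th word of 50 bases in the last 600 bases of transcripts. This served the bins of sharing and the choice of genes with copies. For Gm3756, Calm2, Gapdh and mitochondrial genes such as mt-Co3, the shared words given by name were counted over all words of the gene.

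The comparison, with its members, and the gene lists were chosen with earlier results of these data known. Genes were named by a rule: the label markers, the 12 largest differences per direction, the 8 most abundant genes, the 6 smallest interaction p-values, the 3 receptor and satellite-like genes with most UMIs, and for each list up to 5 called members per direction with its most abundant member and textbook members. Called members whose calls were lost in several settings were mostly counted and not named; genes outside the rule were chosen after their values were seen.

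Alternatives were DESeq2 size factors in edgeR, DESeq2 1.42.0, no filter on low counts, filterByExpr, the 4 CA3 replicates in the fit, the replicate number as a block (replicate block), random thinning to the smallest total with and without that block, a correction of counts for repeated draws of UMIs of 6 bases, and each replicate left out in turn. Leaving out genes with copies was added after seeing the data. The 28 replicates of other sections and of TE CA3 entered no fit, as they bear on other comparisons, and the list of barcodes was not used. Some genes of the lists are not reported here by name.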

Additional observations from a re-analysis of the deposited data

Results flagged for a closer look

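Each group of 4 replicates was examined for a replicate whose gap to the nearest of the others exceeded the critical share of the group's range (Dixon's 95% value). For independent, normally distributed values chance marks about 1 in 20 groups, and here 29 of 186 were marked. Some groups hold few UMIs and some genes lie within marked lists, so that rate does not apply and no excess over chance is read from it. By summed CPM the marked lists and sets were mitochondrially encoded (82607), satellite-like (7151), Gm10800 and Gm10801 (22907) and genes with copies (103833) in CA1 replicate 4, choroid plexus and ependyma (5086) in CA1 replicate 1, choroid plexus and ependyma (3367) in DG replicate 2, meningeal fibroblasts (55.7) in CA1 replicate 2, meningeal fibroblasts (319) in DG replicate 3 and oligodendrocytes (6086) in DG replicate 1. CA1 replicate 4, with the fewest UMIs, was marked most often. Its mitochondrial sum stands against sums of deeper replicates that the length of the UMI may lower, so the size of that gap is uncertain. By CPM the marked genes in CA1 were Erbb4 (146), Trpc6 (2.74) and Ttr (3125) in replicate 1, ENSMUSG00000095552 (6.90) and Pde1a (515) in replicate 3 and Fos (31.4), Gm10717 (2986), Gm10800 (14271), Gm28437 (3961), Nectin3 (15.7), Neurod1 (7.86) and Vmn2r76 (86.4) in replicate 4. In DG they were Kcnh7 (25.5) and Nr4a1 (45.4) in replicate 1, Enpp2 (1014), Gapdh (14.0), Thbs4 (1.55) and Ttr (2300.1) in replicate 2, Cap1 (2.54) in replicate 3 and Olig2 (29.3) in replicate 4. Some of these values are 1 or 2 UMIs, as for Thbs4, Cap1 and Trpc6, and the cause of the spread was not tested.

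For 37 named genes the difference between CA1 and DG differed between HCl and TE by the interaction test. As the log2 fold change with HCl less that with TE, the value was above 0 for 33 of them: Gm10925 9.40, Clic6 6.92, Gm28437 6.60, Gm10722 5.55, mt-Nd3 5.18, Ttr 4.50, mt-Co2 4.48, Gm13341 4.06, ENSMUSG00000097312 4.06, mt-Co3 3.75, Rnf181 3.74, Gm28661 3.63, Rnf130 3.62, Gapdh 3.15, Gm10801 3.12, mt-Atp6 3.08, Gm13339 2.88, Gm10717 2.47, Kl 2.17, Enpp2 2.16, Gm10800 2.09, Hspa8 2.05, mt-Nd6 1.87, mt-Nd2 1.66, mt-Co1 1.495, Efnb3 1.45, Nr3c2 1.45, Dlg2 1.43, mt-Nd5 1.42, Ncs1 1.37, Gm29216 1.35, Calm2 0.91 and mt-Rnr1 0.87. It was below 0 for ENSMUSG00000095552 -7.47, Smad3 -1.42, Dpp6 -0.93 and Gabra5 -0.85. Clic6 had 0 UMIs in CA1 with TE and ENSMUSG00000095552 had 0 in DG with TE, so neither value estimates a size. The cause of these differences was not tested.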

How the results depend on the processing

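Against 2526 genes called between CA1 and DG, DESeq2 gave 1621, thinning to the smallest total 962, and thinning with the replicate block 1025; fewer UMIs and genes entered after thinning, and for DESeq2 the cause was not tested. The other settings gave 2201 to 2759 (the replicate block), and leaving out 1 replicate 1776 to 2491. Of the 201 genes named and tested, 29 were no longer called after thinning and 10 not tested, against 8 and 6 in DESeq2. 160 kept direction and side of the threshold in every setting that tested them.

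Interaction calls, 233 as reported, were 579 with the replicate block and 59 after thinning, with 110 to 222 when 1 replicate was left out, and the cause was not tested. The labels pair no CA1 replicate with a DG replicate, so the replicate block rests on the numbers alone, and no fit used the pairs with the higher correlations across genes.

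The ratio of detected genes was 1.12 as reported (exact permutation p = 0.314), 1.02 for genes with at least 5 UMIs (p = 0.886) and 1.07 at equal depth, where it passed 0.05 (exact permutation p = 0.0286). That of total UMIs, 1.16, ran from 0.967 to 1.46 when 1 replicate was left out. Of 46 gene lists 21 had a median above that of all genes, and 12 with no filter on low counts, where the all-gene median rose from 0.03 to 0.29 because genes with few UMIs entered.

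Direction turned in 4 named genes when 1 replicate was left out: Hbb-bt ranged from -1.48 to 0.23, Ttr from -1.54 to 2.69, mt-Nd4 from -0.052 to 0.69 and mt-Rnr2 from -0.37 to 0.60. For mt-Rnr2 this turn shows nothing about direction, as its counts in CA1 are limited by the length of the UMI. The turn of mt-Nd4, the next in abundance, is uncertain for the same reason, since the UMI correction changed its call. Depth limits what can be shown: genes with few UMIs in CA1 or DG carry wide intervals, and a gene that was not called was not shown to be equal.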

Other observations

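With the mean of each region taken out, log2 CPM were compared between CA1 and DG replicates across 9633 genes, which are not independent replicates. The correlation was highest between replicates whose numbers run in opposite order, 0.186 for CA1 replicate 1 with DG replicate 4, 0.192 for CA1 replicate 2 with DG replicate 3, 0.182 for CA1 replicate 3 with DG replicate 2 and 0.141 for CA1 replicate 4 with DG replicate 1. The other pairs, those of equal number included, lay between -0.194 and 0.0921. The labels name no pairs, the pattern was noticed after the values were seen, and its cause was not tested.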
